A study of Mus musculus with 6 samples.

Results

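The levels of 39 interferon-stimulated genes were examined in brown adipose tissue (BAT) of sST2-KO mice and their wild-type (WT) littermates. The genes were chosen by symbol, as common targets of the interferons and the transcription factors that drive them, and all 39 were found among the 35976 rows of the count table. They comprise 29 genes mainly known as type I interferon targets, 6 gamma-type targets (5 guanylate-binding proteins and Irf1) and 4 immunity-related GTPases (IRG family), which answer to both kinds of interferon. RNA-seq was performed on BAT of 3 WT and 3 sST2-KO mice. The sST2-KO mice carry a whole-body CRISPR/Cas9 deletion in Il1rl1, which removes the intron that lies after exon 8 and is aimed at soluble ST2, the decoy form of the receptor for interleukin-33. Both groups were male C57BL/6J mice aged 10 weeks. In both groups the BAT had been denervated, which cuts its sympathetic nerves, and the mice were then exposed to 10 °C for 8 h. No innervated or warm-housed BAT was compared here, and the values therefore describe the genotype difference in denervated, cold-exposed tissue.

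Interferons are cytokines that put cells into an antiviral state. Type I interferons (the alpha and beta forms) act through the receptor chains Ifnar1 and Ifnar2, and lead to a complex of Stat2, Irf9 and a partner factor that binds the interferon-stimulated response element (ISRE). Interferon gamma, which is made mainly by T cells and natural killer (NK) cells, acts through Ifngr1 and Ifngr2 and drives genes with a gamma-activated site (GAS), among them Irf1 and the guanylate-binding proteins. Many targets answer to both, so that the classes are a convention and not a clean division.

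The promoters of the genes are shown first, because the ISRE and the GAS are the elements named for the 2 responses. In the GRCm39 annotation, 38 of the 39 genes were found by symbol or synonym, and Ddx58 was not matched. The window from 250 bases before to 50 bases after the start of the canonical transcript of each gene, which can lie inside the outer bounds of the gene, was searched on both strands for an ISRE core (GAAA, any 2 bases, GAAA) and a GAS core (TTC, any 3 bases, GAA). An ISRE core was present in 21 of the 38 promoters (55.3%) and in 3.84% of 21757 protein-coding promoters, and a GAS core in 11 of the 38 (28.9%) and in 8.82% of all. By class, the ISRE core lay in 15 of 28 type I promoters, 3 of 6 gamma-type promoters and 3 of 4 IRG promoters, and the GAS core in 6, 3 and 2 of them. Both cores were found in 8 promoters and neither in 14, Mx1, Gbp3 and Gbp4 among them. The 150 bases before the start site are given below for 3 type I targets and 2 gamma-type targets, 5′ to 3′ on the strand of the gene, with the letters of either core in capitals.
Isg15 (chr4:156285304-156285453, minus strand): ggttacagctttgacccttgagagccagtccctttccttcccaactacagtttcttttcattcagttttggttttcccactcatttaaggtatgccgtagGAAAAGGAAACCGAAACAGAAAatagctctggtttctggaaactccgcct
Oas3 (chr5:120915730-120915879, minus strand): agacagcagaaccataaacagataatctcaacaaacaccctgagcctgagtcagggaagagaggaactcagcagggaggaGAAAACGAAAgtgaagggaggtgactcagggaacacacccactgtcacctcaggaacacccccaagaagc
Ifit3 (chr19:34560749-34560898, plus strand): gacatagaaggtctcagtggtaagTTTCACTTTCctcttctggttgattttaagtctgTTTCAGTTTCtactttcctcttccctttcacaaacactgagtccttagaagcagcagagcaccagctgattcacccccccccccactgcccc
Gbp5 (chr3:142202384-142202533, plus strand): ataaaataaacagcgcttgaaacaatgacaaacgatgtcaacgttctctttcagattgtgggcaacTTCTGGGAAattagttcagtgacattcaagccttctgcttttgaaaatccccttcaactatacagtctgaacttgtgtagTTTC
Irf1 (chr11:53660691-53660840, plus strand): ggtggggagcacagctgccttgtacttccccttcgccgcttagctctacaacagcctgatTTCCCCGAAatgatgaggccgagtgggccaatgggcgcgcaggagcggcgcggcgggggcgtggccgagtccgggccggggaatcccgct
Counted from the start site as 0, the core in Oas3 began at -70, those in Ifit3 at -126 and -92, and those in Isg15, which overlap one another, at -50, -44 and -38. The GAS cores of Gbp5 and Irf1 began at -84 and -90, and the last 4 capitals of the Gbp5 line open an ISRE core that began at -4 and runs over the start site. A match is a description of the letters, and binding was not measured.

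The libraries held 8159442 to 12874809 counts each, and the levels below are CPM, the counts relative to the size of the library, after scaling by edgeR's TMM factors. Il1rl1 was at 0.740 to 1.79 CPM in WT and at 3.83 to 14.02 CPM in sST2-KO, but a count over the whole gene does not separate soluble from membrane ST2 and does not check the deletion. Markers of several cell types differed between the groups. The brown adipocyte markers summed to 8212 to 15510 CPM in WT and 338 to 1796 CPM in sST2-KO, and 7 of 8 passed the test as lower. Of 6 markers of all adipocytes 1 did, with sums of 12810 to 15980 CPM in WT and 4505 to 8919 CPM in sST2-KO. Of these 6, 5 were fitted lower and Lep was fitted higher (log2 fold change 3.27, edgeR adjusted p = 0.13). Skeletal muscle markers summed to 66.2 to 1241 CPM in WT and 3401 to 14830 CPM in sST2-KO, with 1 of 8 called higher, and the 5 liver genes stood at 4404 CPM in WT replicate 2 and at 8.22 to 44.8 CPM elsewhere. In bulk tissue, fewer cells of a type and less RNA per cell cannot be told apart.

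All 39 genes passed the filter on low counts and were among the 14542 genes tested. The interferon-stimulated genes stood mostly higher in sST2-KO BAT, by less than 2-fold at the median, and few of them passed the test. Their fitted log2 fold changes (sST2-KO minus WT) ran from 0.0004 for Irf9 to 1.67 for Oas3, with a median of 0.89, against a median of 0.03 and quartiles of -0.43 and 0.54 over all genes tested. All 39 were fitted above 0, as were 52% of all genes. Calls required both a change of over 2-fold and, in edgeR's quasi-likelihood test, an adjusted p under 0.05. By this rule 7 were called higher, against 9.04% of all genes, and 0 were called lower, against 7.1% of all genes. None had an unadjusted p under 0.05 for a lower level, by edgeR or by DESeq2. By edgeR, 28 had one for a higher level. For unadjusted p-values, here and below, the share over all genes was not counted, so these numbers have no background beside them. With no minimum fold the same 7 passed as higher, against 10.5% of all genes, and 0 as lower, against 9.1%. DESeq2 called 14 members higher, against 11% of all genes. The called genes were Oas3 (chr5:120891163-120915729 in GRCm39), Oasl1 (chr5:115061294-115075974), Mx1 (chr16:97248235-97264107), Dhx58 (chr11:100585710-100595097), Samhd1 (chr2:156939453-156977187), Gbp5 (chr3:142199739-142228105) and Ifi47 (chr11:48967412-48987813). The 3 sST2-KO libraries lay above all 3 WT libraries for 15 of the 39, against 21.8% of all genes, and below them for 0, against 19.7%. These genes were measured in the same 6 libraries and are not independent of one another.

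**Figure D1:**
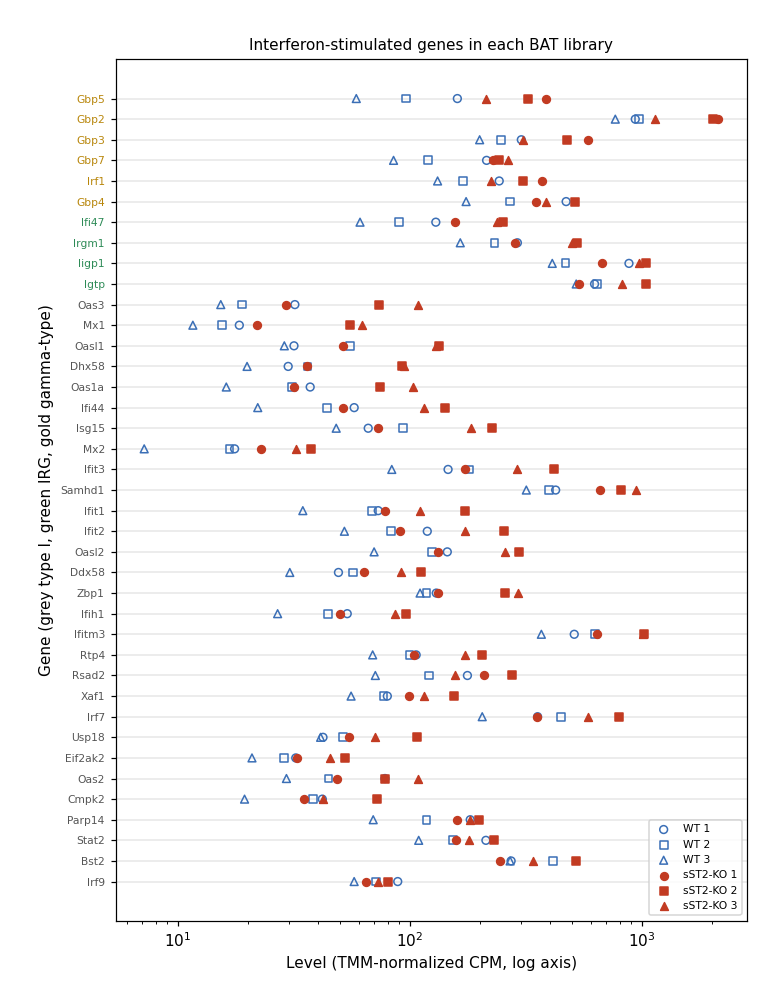
Level of each of the 39 genes in TMM-normalized CPM (log axis) in the 3 WT (open blue) and 3 sST2-KO libraries (filled red), ordered within each class by fold change. WT replicate 3 is the lowest WT library for all 39 genes, and sST2-KO replicate 1 lies near the WT libraries for most type I targets and to the right for most gamma-type targets.

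The spread within the groups followed the libraries. WT replicate 3 was the lowest of the WT libraries for all 39 genes, whereas it was the lowest for 30.8% of all genes tested. In the sST2-KO group, replicate 1 was the lowest for 34 of the 39, against 33.1% of all genes. Replicates 2 and 3 lay above every WT library for 37 and 32 of the genes, and replicate 1 for 17. The share of all genes above every WT library was not counted library by library. The calls depend on the scaling and on these libraries. With RLE factors, Dhx58, Oas3 and Oasl1 lost their calls (edgeR, adjusted p = 0.052, 0.051 and 0.051), and Mx1, Samhd1, Gbp5 and Ifi47 kept them. Without WT replicate 3, 0 genes were called (0.239% of all genes tested in that fit), and 10 had an unadjusted p under 0.05. The count was also 0 without WT replicate 2 and without sST2-KO replicate 2, with 19 and 7 members at an unadjusted p under 0.05, where 2.63% and 6.96% of all genes were called higher. It was 4 without WT replicate 1, against 7.47% of all genes, and 3 without sST2-KO replicate 3, against 4.59%. Without sST2-KO replicate 1, 15 were called (9.38% of all genes), 6 of them among the 7 named above.

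None of the 3 transcription factors of the type I response passed the test. Stat2 was at 212, 153 and 109 CPM in WT and at 157, 230 and 180 CPM in sST2-KO, here and below in the order of replicates 1, 2 and 3. Irf9 was at 88.5, 71.4 and 57.5 CPM in WT and at 64.7, 80.1 and 72.8 CPM in sST2-KO. For both genes the groups overlapped, and neither change passed the test (Stat2: log2 fold change 0.26, SE 0.29, adjusted p = 0.55; Irf9: 0.0004, SE 0.21, adjusted p = 0.999). The direction of Irf9 is not set, since RLE factors gave -0.01. Irf7, the factor that amplifies the production of type I interferon, was at 355, 447 and 205 CPM in WT and at 354, 799 and 585 CPM in sST2-KO. The log2 fold change of Irf7 was 0.79 (SE 0.39, adjusted p = 0.19), with sST2-KO replicate 1 at the level of WT replicate 1.

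Of the 3 cytoplasmic RNA sensors, Dhx58, which encodes LGP2, rose. It was at 29.9, 36.2 and 19.9 CPM in WT and at 35.9, 92.6 and 94.01 CPM in sST2-KO (log2 fold change 1.37, SE 0.40, adjusted p = 0.049). Replicate 1 of sST2-KO lay just under the highest WT library, so the groups overlapped by that library. Ifih1, which encodes MDA5, was at 53.6, 44.3 and 26.9 CPM in WT and at 50.04, 96.1 and 86.1 CPM in sST2-KO (0.89, SE 0.33, adjusted p = 0.094). Ddx58, which encodes RIG-I, did not overlap between the groups (30.3 to 56.6 CPM in WT and 63.1 to 111 CPM in sST2-KO), with an adjusted p of 0.059.

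The OAS family, best known for enzymes that make the short oligoadenylates that switch on RNase L, held 2 of the 7 calls. Oas3 was at 31.9, 18.9 and 15.3 CPM in WT and at 29.3, 73.6 and 108 CPM in sST2-KO, the highest fold change of the 39 genes (log2 fold change 1.67, SE 0.48, adjusted p = 0.049). Oasl1 was at 31.6, 55.1 and 28.7 CPM in WT and at 51.4, 134 and 130 CPM in sST2-KO (1.45, SE 0.41, adjusted p = 0.048). In both genes sST2-KO replicates 2 and 3 were more than 2 times as high as any WT library, while replicate 1 fell within the WT range. Oas2 had the smallest change of the family, with 78.0, 44.6 and 29.3 CPM in WT and 48.4, 77.8 and 108 CPM in sST2-KO (0.62, SE 0.41, adjusted p = 0.31). Oas1a (1.31) and Oasl2 (1.01) did not pass the test, and reads of Oas1a are uncertain because 97.3% of its transcript is matched at 95% identity by Oas1g.

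Both genes of the Mx GTPases, a dynamin-like family, were above the WT range in every sST2-KO library. Mx1 was at 18.4, 15.5 and 11.6 CPM in WT and at 21.8, 54.9 and 61.9 CPM in sST2-KO, and rose (log2 fold change 1.60, SE 0.39, adjusted p = 0.031). Mx2 was at 17.5, 16.7 and 7.15 CPM in WT and at 22.9, 37.4 and 32.3 CPM in sST2-KO (1.15, SE 0.36, adjusted p = 0.062). Part of each transcript is shared with the other at 95% identity (24.0% of Mx1 and 26.6% of Mx2), so that their reads may be split.

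The 3 IFIT genes, whose proteins bind foreign RNA, were close to one another in fold change, and none passed the test. Ifit3 was at 146, 179 and 83.5 CPM in WT and at 173, 418 and 290 CPM in sST2-KO (log2 fold change 1.11, SE 0.39, adjusted p = 0.086), and it shares 97.2% of its transcript with Ifit3b. Ifit2 was at 119, 82.7 and 52.2 CPM in WT and at 90.9, 255 and 172 CPM in sST2-KO (1.03, SE 0.43, adjusted p = 0.13). Isg15, a ubiquitin-like protein that is attached to other proteins, was at 66.1, 93.1 and 48.1 CPM in WT and at 73.0, 225 and 183 CPM in sST2-KO (1.21, SE 0.43, adjusted p = 0.086). Again the sST2-KO libraries 2 and 3 stood apart from WT and library 1 did not. Usp18, the protease that removes Isg15 and damps the type I receptor, did not overlap between the groups. It was at 42.2, 51.3 and 41.2 CPM in WT and at 54.9, 107 and 70.3 CPM in sST2-KO (0.79, SE 0.27, adjusted p = 0.075).

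Among the other 11 type I targets, only Samhd1, which lowers the cell's supply of nucleotides, was called. It was at 424, 396 and 317 CPM in WT and at 657, 814 and 938 CPM in sST2-KO (log2 fold change 1.08, SE 0.25, adjusted p = 0.027), the lowest adjusted p of the 39 genes. All 3 sST2-KO libraries were well above WT, including replicate 1. Ifi44 had the largest change of this group, at 57.5, 43.9 and 22.1 CPM in WT and 51.2, 141 and 114 CPM in sST2-KO (1.31, SE 0.45, adjusted p = 0.079). Bst2, the tether that holds budding viruses at the cell surface, had the smallest. It was at 273, 412 and 270 CPM in WT and at 243, 519 and 339 CPM in sST2-KO (0.21, SE 0.33, adjusted p = 0.69), and its sign turned to -0.15 without sST2-KO replicate 2. The other 8 (Zbp1, Ifitm3, Rtp4, Rsad2, Xaf1, Eif2ak2, Cmpk2 and Parp14) had log2 fold changes of 0.55 to 0.93. Per kilobase of annotated exon, Ifitm3 (392 in WT and 695 in sST2-KO, in CPM per kilobase) had the highest WT mean of the 38 genes with a known length, ahead of Gbp2 and Bst2, and Oas3 the lowest (3.11 and 9.93).

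**Figure D2:**
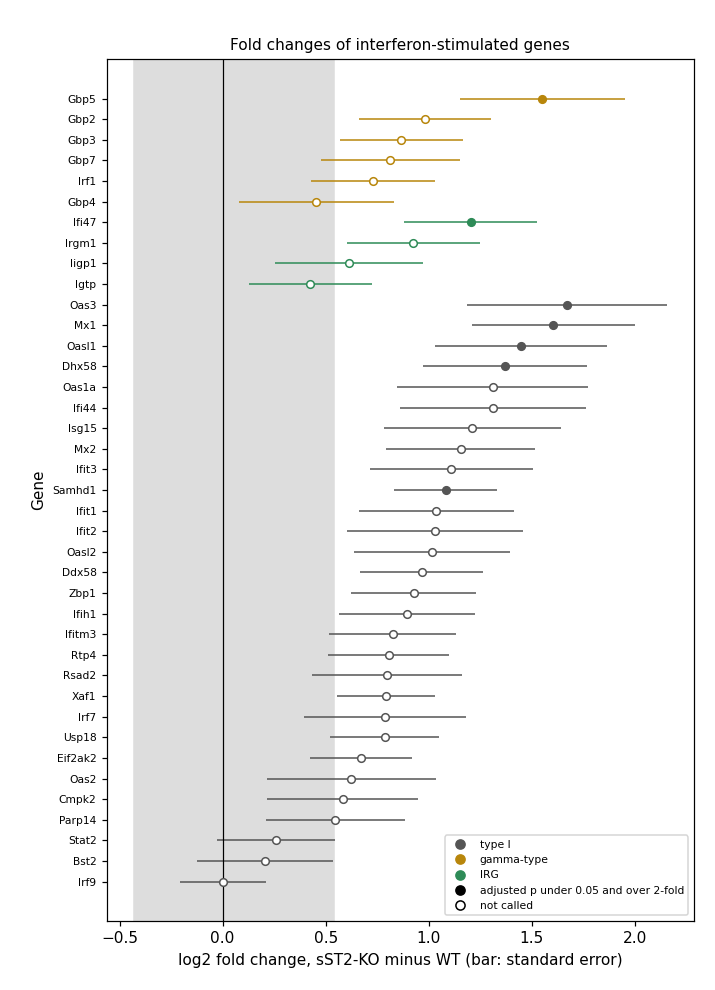
Log2 fold change (sST2-KO minus WT) of each gene from edgeR with its standard error, colored by class, filled where called and open where not. The grey band spans the quartiles of all 14542 genes tested (-0.43 to 0.54), and the fitted values of the 3 classes cover overlapping ranges.

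The guanylate-binding proteins, which attack membranes around intracellular microbes, held the only called gamma-type member, Gbp5. It was at 160, 96.2 and 58.7 CPM in WT and at 386, 324 and 213 CPM in sST2-KO (log2 fold change 1.55, SE 0.40, adjusted p = 0.035). Here sST2-KO replicate 1 was the highest library and replicate 3 the lowest of the sST2-KO group. Gbp2, the most abundant gene of the family, followed the same order with 935, 974 and 767 CPM in WT and 2130, 2015 and 1137 CPM in sST2-KO (0.98, SE 0.32, adjusted p = 0.067). Gbp4 was at 471, 269 and 175 CPM in WT and at 350, 516 and 387 CPM in sST2-KO, with overlapping groups (0.45, SE 0.38, adjusted p = 0.42). Gbp3 (0.87) and Gbp7 (0.81) did not overlap between the groups and did not pass the test. Irf1, the transcription factor that interferon gamma induces directly, was at 242, 170 and 132 CPM in WT and at 370, 308 and 224 CPM in sST2-KO. Its sST2-KO replicate 3 lay inside the WT range, and the change did not pass the test (0.73, SE 0.30, adjusted p = 0.12).

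Of the IRG GTPases, which act with the guanylate-binding proteins, Ifi47 rose. It was at 129, 89.5 and 60.9 CPM in WT and at 156, 251 and 236 CPM in sST2-KO (log2 fold change 1.20, SE 0.32, adjusted p = 0.039). Igtp had the smallest change, with 625, 639 and 521 CPM in WT and 533, 1041 and 823 CPM in sST2-KO (0.43, SE 0.30, adjusted p = 0.34). Irgm1 (0.92) and Iigp1 (0.61) did not pass the test. In this family sST2-KO replicate 1 was the lowest sST2-KO library for all 4 genes, as it was for most type I targets.

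Set side by side, the 29 type I and the 6 gamma-type targets had like medians. The order of the sST2-KO libraries differed for 4 of the 6. The median log2 fold change was 0.93 over the 29 type I targets, of which 5 were called, and 0.84 over the 6 gamma-type targets, of which 1 was called. It was 0.77 over the 4 IRG genes, of which 1 was called. Of all genes tested, 9.04% were called higher. The sST2-KO libraries lay above all WT libraries for 10 of the 29, 4 of the 6 and 1 of the 4, against 21.8% of all genes. As the mean of log2(CPM + 1) over a class minus the WT mean, the type I targets stood at 0.29, 0.20 and -0.49 in WT replicates 1 to 3 and at 0.32, 1.28 and 1.08 in sST2-KO replicates 1 to 3. The gamma-type targets stood at 0.50, -0.02 and -0.49 in WT and at 1.11, 1.07 and 0.61 in sST2-KO, and the IRG genes at 0.41, -0.02 and -0.40 in WT and 0.32, 1.11 and 0.96 in sST2-KO. Replicate 1 of sST2-KO was thus level with WT replicate 1 for the type I targets and above every WT library for the gamma-type targets. It was the highest sST2-KO library for 0 of the 29 type I targets and for 4 of the 6 gamma-type targets (Gbp2, Gbp3, Gbp5 and Irf1). It was the lowest for 2 of the 6, and on their class mean it lay close to replicate 2 (1.11 and 1.07). Among the 20 other gamma-type targets described below, it was the highest for 2 and the lowest for 15. The mean of the gamma-type targets exceeded that of the type I targets by 1.94, 1.51 and 1.73 in WT and by 2.52, 1.52 and 1.26 in sST2-KO, so that the groups overlapped in this difference. One sST2-KO library lay above the WT range, 1 within it and 1 below it.

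**Figure D3:**
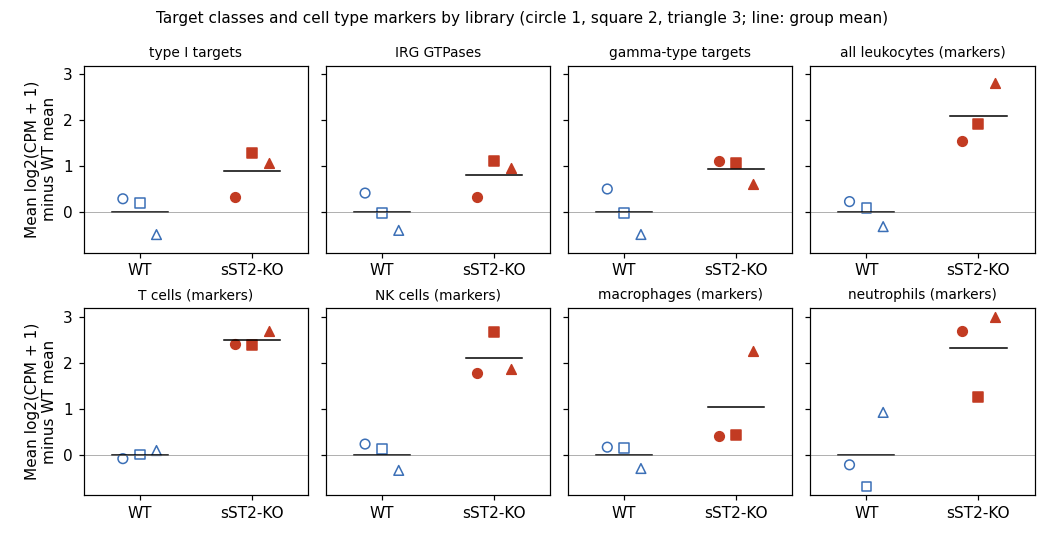
Mean log2(CPM + 1) of each class or marker list minus its WT mean, by library (circle, square and triangle are replicates 1, 2 and 3, and the line is the group mean). The type I and IRG panels place sST2-KO replicate 1 beside the WT libraries, and the gamma-type panel places it highest, close to replicate 2. The leukocyte, T cell and NK cell panels place all 3 sST2-KO libraries above WT.

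Markers of blood cells moved with the genotype beside these genes, those of most leukocyte types upward and those of erythrocytes downward. The 4 pan-leukocyte markers were all called higher, and their summed level was 160 to 220 CPM in WT and 538, 684 and 1261 CPM in sST2-KO. T cell markers (6 of 7 tested called higher) summed to 13.9 to 15.5 CPM in WT and 124, 123 and 151 CPM in sST2-KO. NK cell markers (6 of 7 called higher) summed to 27.3 to 50.8 CPM in WT and to 269, 440 and 246 CPM in sST2-KO. Macrophage markers (1 of 10 called higher) summed to 908 to 1213 CPM in WT and to 1573, 1534 and 6502 CPM in sST2-KO, and neutrophil markers (2 of 6 called higher) to 30.7 to 134 CPM and 482, 148 and 722 CPM. Of the B cell markers, 0 of 2 tested were called. Of the 5 markers of conventional dendritic cells, 2 were called higher and 1, Zbtb46, was fitted lower (-0.97, not called). In the sums of both lists the groups overlapped. All 5 erythrocyte markers were called lower, and they summed to 484 to 1584 CPM in WT and to 107, 18.9 and 11.1 CPM in sST2-KO. Siglech, which defines plasmacytoid dendritic cells, the specialized makers of type I interferon, was at or under 0.280 CPM in every library, and the 4 markers of these cells, of which only Pacsin1 was tested and called higher, summed to 0.863 to 1.41 CPM in WT and 2.65 to 4.87 CPM in sST2-KO. The part of cell content in the levels of the interferon-stimulated genes was not tested.

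Several genes upstream of these targets changed. Of 40 ligands, receptors, kinases, sensors and inhibitors, 27 were tested. Of these, 10 were called higher, against 9.04% of all genes, and 1 was called lower, against 7.1% of all genes. Ifng, the gene of interferon gamma, had 2, 8 and 1 counts in WT and 71, 242 and 424 counts in sST2-KO. As levels these were 0.187, 0.754 and 0.123 CPM in WT and 4.95, 28.7 and 41.9 CPM in sST2-KO (log2 fold change 6.04, SE 0.98, adjusted p = 0.015). The sST2-KO library with the least Ifng, replicate 1, was the highest for Gbp2, Gbp3, Gbp5 and Irf1 but not for Gbp4 and Gbp7. For the 20 other gamma-type targets described below, it was the highest sST2-KO library for 2 and the lowest for 15. It was the lowest sST2-KO library for 28 of the 29 type I targets. The 10 type I interferon genes listed together had 1, 3 and 0 counts in WT and 16, 7 and 16 counts in sST2-KO, and Ifnb1 alone 1, 1 and 0 against 5, 3 and 5. None of the 10 passed the filter, and 3 counts in a library correspond to 0.209 to 0.370 CPM, so these counts stand near the floor of detection. Both interferon lambda genes had 0 counts in all 6 libraries.

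Among the receptors, the signalling chain Ifngr2 rose, at 15.2, 11.1 and 9.12 CPM in WT and 27.3, 27.7 and 56.8 CPM in sST2-KO (log2 fold change 1.65, SE 0.35, adjusted p = 0.022). Il10rb, a chain shared by the receptors of interferon lambda and interleukin-10, also rose (1.04, adjusted p = 0.025). Ifnar1 (0.73, SE 0.24), Ifnar2 (0.11, SE 0.25) and the ligand-binding chain Ifngr1 (0.27, SE 0.28) did not pass the test. Of the receptor kinases, Jak2, which serves the gamma receptor, rose by 1.47 on the log2 scale (SE 0.29, adjusted p = 0.019), and Jak1 (0.62) and Tyk2 (0.84) did not pass.

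Among the 13 genes of sensing and induction, 4 rose. These were Ikbke, a kinase that activates interferon regulatory factors (3.12, adjusted p = 0.024), Irf5 (1.40, adjusted p = 0.035), Irf8 (1.23, adjusted p = 0.042) and Sting1, the adaptor for cytoplasmic DNA, listed as Tmem173 (1.07, adjusted p = 0.046). Mavs, the mitochondrial adaptor of Ddx58 and Ifih1, fell, from 85.2, 55.2 and 68.2 CPM in WT to 33.3, 37.7 and 28.7 CPM in sST2-KO (log2 fold change -1.06, SE 0.21, adjusted p = 0.019). Of the 5 feedback inhibitors, Socs3 (2.38, adjusted p = 0.014) and Ptpn6, the leukocyte phosphatase SHP-1 (2.45, adjusted p = 0.014), rose. Of the upstream list, 0 genes were called without WT replicate 3, 3 higher without WT replicate 2 and 6 higher without sST2-KO replicate 3. Of all genes, 0.239%, 2.63% and 4.59% were called higher in those fits. The call of Mavs was lost without WT replicate 1, WT replicate 3 or sST2-KO replicate 3 and with total counts.

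**Figure D4:**
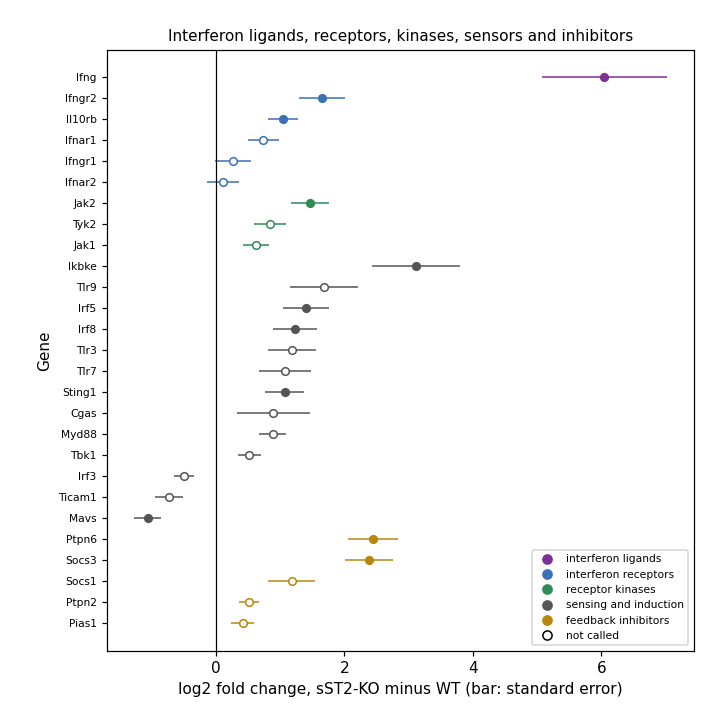
Log2 fold change (sST2-KO minus WT) with standard error of the 27 upstream genes tested, by role, filled where called. Ifng stands at 6.04, Mavs at -1.06, and the other genes between -0.73 and 3.12.

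Interferon targets outside the 39 were examined as 2 further lists. Of 44 other type I targets tested, 10 were called higher, against 9.04% of all genes, and 0 lower, against 7.1%, and their log2 fold changes had a median of 0.88, near that of the 29. They were Ifitm1 (2.51), Slfn2 (2.23), Slfn1 (2.2), Epsti1 (2.18), Ifi209 (listed as Pyhin1, 2.02), Ifi30 (1.87), Oas1g (1.64), Phf11b (1.62), Ddx60 (1.48) and Ifit1bl1 (1.36). Ifi30 is also known as a target of interferon gamma, and it was counted as listed. Reads of Oas1g are uncertain, because it matches 97.3% of the Oas1a transcript at 95% identity. Of 20 other gamma-type targets, 8 were called higher and 0 lower, against the same 9.04% and 7.1%, with a median of 0.98. The chemokine genes Cxcl9 (1.72), Cxcl10 (2.75) and Cxcl11 (2.87), whose products draw T cells, rose, as did Nos2 (3.70), the inducible nitric oxide synthase, the antibody receptor gene Fcgr1 (1.93) and the guanylate-binding proteins Gbp8 (2.21), Gbp10 (1.36) and Gbp11 (1.66). Cxcl10 was at 32.3, 25.6 and 14.6 CPM in WT and at 222, 160 and 108 CPM in sST2-KO (SE 0.38, adjusted p = 0.013). Cxcl9 was at 485, 318 and 224 CPM in WT and at 1588, 1036 and 763 CPM in sST2-KO (SE 0.40, adjusted p = 0.027). In both chemokine genes sST2-KO replicate 1 was the highest, as in Gbp2, Gbp5 and Irf1. This order was not shared by the whole list, as replicate 1 was the highest sST2-KO library for 2 of these 20 genes and the lowest for 15. For the 44 other type I targets it was the highest for 1 and the lowest for 38. Of the 2 lists together, 18 genes were called. The count was 0 without WT replicate 3 and 4 without WT replicate 2, where 0.239% and 2.63% of all genes were called higher. It was 8 without sST2-KO replicate 2 and 9 without sST2-KO replicate 3, where 6.96% and 4.59% were.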

How the data were processed

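BAT RNA-seq libraries (poly-A selected, paired-end, prepared with a kit that does not mark strand) were aligned by the authors with HISAT2 2.2.1 to mm39 and counted with htseq-count. The deposited values are raw counts per gene symbol. The annotation release and strand setting of the counting are not given in the sources used here, so reads of overlapping antisense genes cannot be told apart: 18 of the 38 located members overlap a gene on the opposite strand. On the same strand, Irf9 overlaps Rnf31, Gbp4 overlaps Gbp8 and Gbp9, Igtp overlaps Irgm2 and Ifi47 overlaps Or2v1, and their reads are uncertain. Groups were taken from the sample titles. The study states 3 per group, and the sources used here do not say more of how the samples were kept apart. The p-values set the difference between the groups against the spread of these 6 libraries within their groups.

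Counts were filtered with filterByExpr (14542 genes), scaled by TMM and compared with the quasi-likelihood test of edgeR 4.0.16 in R 4.3.3, with Benjamini-Hochberg adjustment over all genes tested. A standard error is the fold change divided by the square root of F. The study's methods name DESeq2, which was run as an alternative (1.42.0). The steps were tested on simulated data. No library was a copy of another of its group (chi-square over degrees of freedom from 36.6 to 104). Members, lists and tests were chosen with earlier results of these data known. Values in every library are given for Irf1, Stat2, Irf7, Irf9, Ifng, the called members and the members with the largest and the smallest change of each role; of the other lists, the called genes and the receptors are named. Promoters and coordinates are from GRCm39 (GENCODE), and near-identical transcripts were found with BLAST 2.17.0. Some genes are not reported here.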

Additional observations from a re-analysis of the deposited data

How the results depend on the processing

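The median log2 fold changes of the 3 classes kept their sign under all alternatives and moved by less than the spread between replicates. With 1 library left out they ran from 0.69 to 1.16 for type I targets, from 0.64 to 1.02 for gamma-type targets and from 0.57 to 1.07 for IRG genes. The counts of calls did not hold. In place of 7 members called higher, RLE factors gave 4 (8.73% of all genes were called higher in that fit), total counts 14 (12.7%) and DESeq2 14 (11%), and leaving out 1 library gave 0 to 15 (0.239% to 9.38%). At an adjusted p under 0.05 with no minimum fold, RLE factors gave 4, total counts 14 and DESeq2 21, and leaving out 1 library 0 to 16. For this threshold the share of all genes was not counted in these fits, so these numbers have no background beside them. Members called fell to 0 without WT replicate 2, WT replicate 3 or sST2-KO replicate 2, to 3 without sST2-KO replicate 3 and to 4 without WT replicate 1, of which 3 were among the 7. With total counts the median of all genes rose to 0.29. Upstream genes called higher ran from 0 to 11 with 1 library left out, those called lower from 0 to 1, and total counts gave 0 lower. Of the 14742 to 15085 genes tested with 1 library left out, 22 to 998 were called lower. With total counts 691 of 14542 were. Other targets called higher ran from 0 to 24 with 1 library left out. The shares of all genes called higher in these fits were the 0.239% to 9.38% given above. The cause of these changes was not tested.

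Irf9 turned to -0.0149 with RLE factors and -0.0158 with DESeq2 and ran from -0.15 to 0.16 with 1 library left out, and Bst2 from -0.15 to 0.43. The labels do not say whether samples with the same replicate number belong together. The correlations of deviations between such samples were -0.066, 0.221 and -0.32, and these cannot show whether samples shared a litter or a preparation. With the replicate block 0 members, 0 upstream genes in either direction and 0 other targets were called, as were 0 of all genes. In that fit 19 members had an unadjusted p under 0.05. The interferon ligands other than Ifng had too few counts to be tested.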
